A study of Caenorhabditis elegans with 2 samples.

Results

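The promoters described here belong to 6 gene families of Caenorhabditis elegans: the F-box genes named fbxa, fbxb and fbxc, the MATH genes named math and bath, and the C-type lectin genes named clec. The members were all nuclear protein-coding genes whose name is 1 of these prefixes, a hyphen and a number, in the Ensembl annotation of WBcel235, the assembly also called ce11. They came to 635 of 19973 protein-coding genes, with 240 clec, 170 fbxa, 104 fbxb, 48 fbxc, 37 math and 36 bath genes. The 635 genes carry 625 names, because 7 names are each used for several genes. Each promoter window ran from 1000 bp upstream to 200 bp downstream of every annotated transcript 5′ end of the gene.

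The series is a chromatin immunoprecipitation with sequencing (ChIP-seq) experiment, in which an antibody recovers the DNA fragments that a protein occupies for sequencing. It has 1 group of 2 biological replicates of whole embryos at the mid-embryonic stage, 3.5 hours old and obtained by egg bleaching, and it has no second condition. The transgenic strain OP787 carries the insertion wgIs787, in which T27A8.2 is fused to TY1, EGFP and 3xFLAG tags, together with unc-119(+) in the unc-119(tm4063) mutant background, and the precipitation used an anti-GFP antibody. The labels give the target as tab-1, a homeobox gene on chromosome II, whereas the genotype names T27A8.2, a gene on the X chromosome, and the samples are referred to as labelled tab-1. The labelled target could not be checked against the peak lists, and the control experiment that the labels point to was not used here.

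F-box proteins pick the substrates of SCF ubiquitin ligases, which are built on the cullin CUL-1 and the SKP1-related SKR proteins. BATH proteins combine a MATH domain with a BTB domain, and proteins of this kind act as substrate adaptors of ligases built on CUL-3. CLEC proteins carry a C-type lectin-like domain, and many clec genes are known for changed expression when worms meet pathogens. All 6 families are greatly expanded in the nematode, and many of their genes lie in clusters of related copies.

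Stretches of promoter DNA at 5 of the sites described next are shown first. Each is 151 bases of WBcel235, plus strand, centred on the summit of the peak, and is shown because its summit lay in a member's window and outside annotated exons of protein-coding genes. The sequences at clec-53 and math-33 are not shown. Capitals mark the word GTTCGA or the word GAGAGA or the word GCGCGC, searched on both strands, so that TCGAAC is the reverse complement of the first word, and overlapping matches are joined. Where none of these words was present, the capital is the summit base.
clec-126: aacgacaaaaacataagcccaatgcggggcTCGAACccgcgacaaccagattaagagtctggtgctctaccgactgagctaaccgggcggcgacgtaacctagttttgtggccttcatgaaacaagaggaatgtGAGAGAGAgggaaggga
fbxc-44: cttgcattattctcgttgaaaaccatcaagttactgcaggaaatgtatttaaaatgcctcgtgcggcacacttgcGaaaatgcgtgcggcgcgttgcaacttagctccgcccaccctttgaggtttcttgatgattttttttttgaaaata
fbxb-85: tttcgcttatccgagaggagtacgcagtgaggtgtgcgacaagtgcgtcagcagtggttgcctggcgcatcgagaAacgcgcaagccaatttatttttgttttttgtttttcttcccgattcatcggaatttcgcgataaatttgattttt
fbxb-62: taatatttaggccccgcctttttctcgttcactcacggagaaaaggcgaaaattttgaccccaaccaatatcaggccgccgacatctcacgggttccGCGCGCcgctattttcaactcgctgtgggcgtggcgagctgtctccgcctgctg
clec-123: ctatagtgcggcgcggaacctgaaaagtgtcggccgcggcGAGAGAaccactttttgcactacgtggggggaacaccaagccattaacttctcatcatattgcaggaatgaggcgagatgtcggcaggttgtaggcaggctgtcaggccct
The windows lie at chrII:3519235-3519385, chrII:4238020-4238170, chrIII:10848982-10849132, chrV:19302322-19302472 and chrII:3113470-3113620, in the order shown.

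Few member promoters held a reproducible peak. The authors' conservative list, which keeps 1313 nuclear peaks at an irreproducible discovery rate (IDR) of 0.01 or less, had a summit in the windows of 6 members, 0.945% of 635 (95% Wilson interval 0.434 to 2.05%). Of all protein-coding genes 2.97% had such a summit, and of the 19338 genes outside the families 588 had one, or 3.04%. Chemoreceptor genes, another large expanded set, had a summit in 12 of 1309 windows, or 0.917%. The 6 members were clec-126, clec-53, fbxc-44, fbxb-62, fbxb-85 and math-33, and no fbxa or bath gene was among them. The authors' other thresholded list of 1559 peaks gave 7 members, or 1.10%, against 3.47% of all genes: it lacked math-33 and added clec-123 and fbxa-66. The intervals cover counting error over genes only, and neighbouring genes can share a summit.

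**Figure D1:**
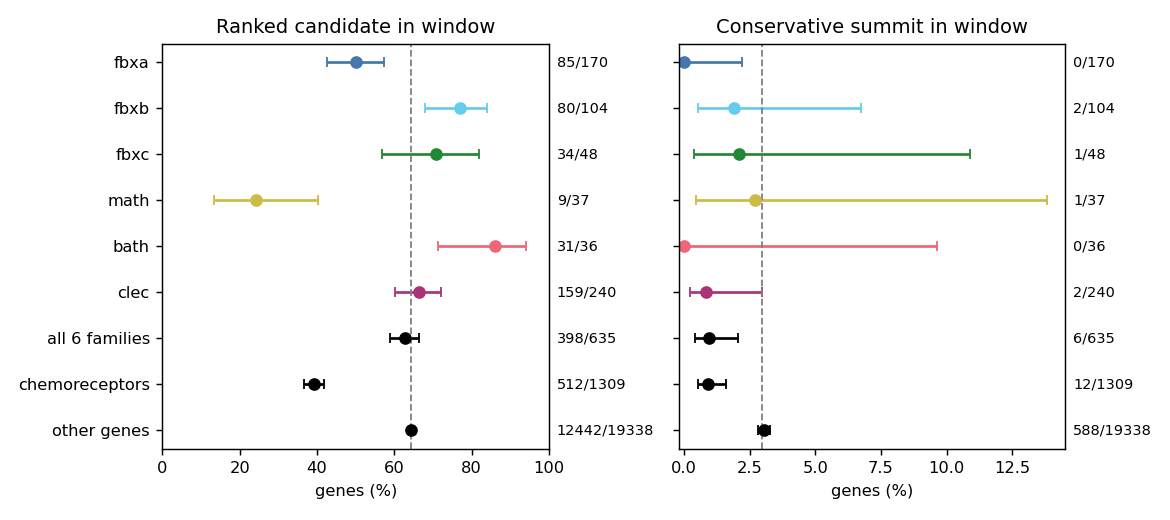
Share of genes (%, x axis) with a ranked candidate (left) or a conservative summit (right) in the promoter window, by family (y axis), with 95% Wilson intervals, the dashed line at all protein-coding genes, and counts at the right. The candidate shares run from 24.3% in math to 86.1% in bath, while no family has more than 2 genes with a conservative summit.

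The strongest of these sites lay 184 bp upstream of clec-126, a C-type lectin gene on the left arm of chromosome II, at chrII:3519237-3519350. Its peak signal, on the authors' unstated scale, was 228.6 in the joint list, 79.3 in replicate 1 and 138.5 in replicate 2, and it ranked 166th of 1313. It was the only 1 of the 6 conservative sites within 200 bp of a small RNA gene, meaning a tRNA, snoRNA, snRNA or miRNA gene. Of all 1313 conservative summits, 974 had no such gene within 200 bp. The clec-126 summit fell inside the tRNA-Lys gene WBGene00023161, and the tRNA-Thr gene WBGene00023162 lay beside it. The word TCGAAC in the clec-126 sequence is the reverse complement of GTTCGA, a word found in the internal promoter of tRNA genes, and lies on the tRNA-Lys gene. The peak was 114 bp wide, against 304 bp for each of the other 5.

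The site at fbxc-44, an F-box gene, lay 344 bp upstream of it at chrII:4237943-4238246. The signal was 192.0 in the joint list, 76.8 in replicate 1 and 112.6 in replicate 2. The gene lies in the chromosome centre, defined as the middle 50% of the length, but close to its edge, at 27.7% of chromosome II. The window of C16A11.2 held the same summit, and the 5′ end of C16A11.2 was nearer, at 108 bp.

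The site at math-33 lay 538 bp upstream of the gene, whose product is the worm relative of the deubiquitinase USP7. Its signal was 137.7 in the joint list and 69.9 in replicate 1, and no peak of replicate 2's own ranked list overlapped it. It was absent from the other thresholded list and its ranked list. The nearer 5′ end, at 278 bp, was that of erfa-3, which encodes the worm homologue of the translation release factor eRF3. Unlike the other 5 conservative sites, the math-33 site had no overlapping peak in 1 replicate's own ranked list. Its global IDR in the ranked list behind the conservative peaks was nevertheless 0.000665. Why replicate 2's own list lacked the peak was not tested.

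The F-box genes fbxb-85 and fbxb-62 had the weakest conservative sites. At fbxb-85, 94 bp upstream at chrIII:10848905-10849208, the signal was 106.0 in the joint list, 44.8 in replicate 1 and 60.3 in replicate 2. The 5′ end of hex-3, a gene of the hexosaminidase family, lay 165 bp from the same summit. At fbxb-62, 363 bp upstream at chrV:19302245-19302548, the signal was 76.2 in the joint list, 41.2 in replicate 1 and 33.8 in replicate 2. It ranked 1039th of 1313, with a global IDR of 0.00718, and no window of a non-member gene held its summit. Among the 6 conservative members, fbxb-62 and clec-126 alone shared their summit with no other protein-coding gene's window.

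The 2 members of the other thresholded list alone were weaker still. At clec-123, 689 bp upstream at chrII:3113393-3113696, the signal was 69.3 in the joint list, 38 in replicate 1 and 31.7 in replicate 2. At fbxa-66, 872 bp upstream, the signal was 54.4 in the joint list, 40.1 in replicate 1 and 21.1 in replicate 2, and the summit lay in a coding exon of iffb-1. Their global IDR was 0.0129 and 0.0787 in the ranked list behind the conservative peaks, and 0.00271 and 0.00176 in the other ranked list.

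The remaining conservative site was that of clec-53, a C-type lectin gene. Its summit lay 559 bp upstream of clec-53 and inside an intron of uba-5, whose own 5′ end was 264 bp away and whose product is the activating enzyme of the ubiquitin-like modifier UFM1. The signal was 152.9 in the joint list, 65.8 in replicate 1 and 85.9 in replicate 2. The summit of clec-53 lay at 25.7% of its chromosome, just inside the centre.

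**Figure D2:**
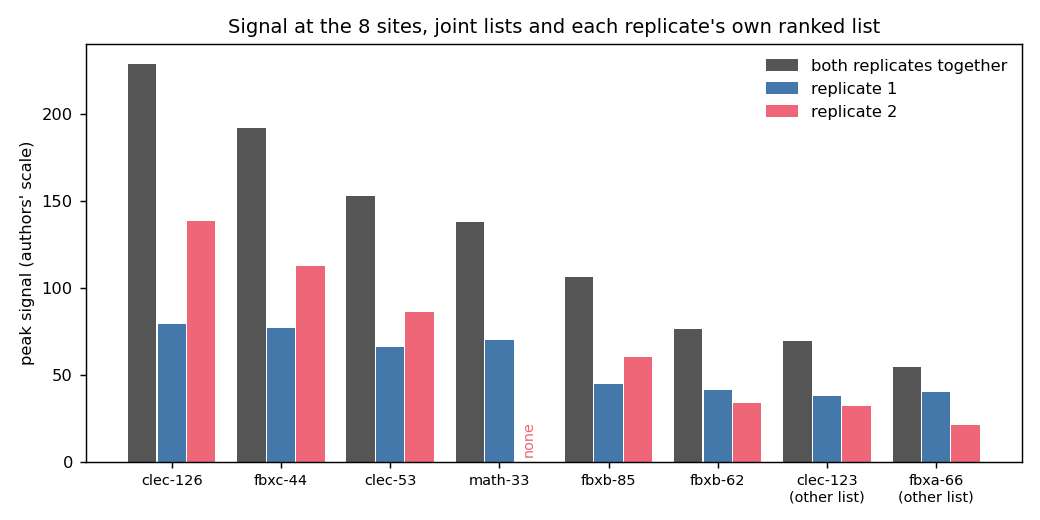
Peak signal (y axis, the authors' scale) at the 8 member sites (x axis) in the joint lists and in each replicate's own ranked list, with 1 bar per value and no error. The printed value was higher in replicate 2's list at clec-126, fbxc-44, clec-53 and fbxb-85 and lower at fbxb-62, clec-123 and fbxa-66. Replicate 2's own ranked list has no overlapping peak at math-33. The 2 replicates' lists are separate and their scale is unstated, so the bars do not measure a difference between replicates.

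Each replicate's own thresholded list held 4 members. Replicate 1's list held clec-126, clec-53, fbxc-44 and math-33, which is 0.630% of members against 1.08% of all protein-coding genes. Replicate 2's list held clec-126, clec-53, fbxc-44 and fbxb-85, again 0.630%, against 2.08% of all genes. The 3 genes clec-126, clec-53 and fbxc-44 were in all 4 lists. The share of members relative to that of the other genes was 0.311 in the conservative list, 0.296 in replicate 2's list and 0.577 in replicate 1's list.

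The members were unevenly spread over the genome. Of the 635 members, 504 (79.4%) lay on chromosome arms, the outer 25% of the length at each end, against 43.6% of the other genes. The left arm of chromosome II held 178 members and the right arm of chromosome V 111, while the X chromosome held 20, or 3.15% of members against 13.7% of all genes. Arms held 3 of the 6 conservative members, 0.595% of the 504 on arms, against 3.24% of other genes on arms. Centres held the other 3, which is 2.29% of 131, against 2.89% of other genes in centres. With each summit given to the nearest gene only, the counts were 3 on arms and 0 in centres. With a centre of 33.3% of the length they were 5 and 1.

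The 2 arms with most members were also poor in conservative summits at other genes. On the left arm of chromosome II, 1 of 178 members (0.562%) and 11 of 798 other genes (1.38%) had one. On the right arm of chromosome V, 1 of 111 members (0.901%) and 10 of 1051 other genes (0.952%) had one. In all other regions together the shares were 4 of 346 members (1.16%) and 567 of 17489 other genes (3.24%). In the 2 arms together the shares were 0.692% of 289 members and 1.14% of 1849 other genes. The part of location in the low count over all members was not tested.

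Sharing a window moved with the calls too. Of the 163 members whose window held a stretch of a non-member's window, 4 had a conservative summit (2.45%), and of the other 472 members 2 had one (0.424%). Among genes outside the families the same shares were 4.50% of 6873 and 2.24% of 12465. Members shared a window with a non-member in 25.7% of cases, against 35.5% for other genes, and 11.3% of members had several annotated 5′ ends, against 27.9%. Their windows were shorter, 1256 bp on average against 1466 bp. Per length of DNA, the members' windows, 0.769 Mb after merging, held 7.80 conservative summits per Mb, against 19.2 in the windows of all protein-coding genes and 13.1 in the nuclear genome.

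Small RNA genes were scarce in the members' windows. They held 8 small RNA genes at 7 members (1.10% of members, against 2.03% of other genes), of which 3 were tRNA, 2 snoRNA, 2 miRNA and 1 snRNA genes. The conservative summit of clec-126 was the only 1 near them. The tRNA-Gly gene in the window of clec-99 had a candidate of signal 29.9, and the snoRNA gene Y67A10A.14 in the window of fbxa-83 had a candidate of 50.2. No candidate lay within 200 bp of mir-355 at clec-144 or of the snoRNA gene M01D1.11 at fbxb-40. A tRNA gene lay in the windows of 2 members (0.315%) and of 143 other genes (0.740%), and 65 of those 143 (45.5%) had a conservative summit. Among genes with no tRNA gene in the window, 5 of 633 members (0.790%) and 523 of 19195 other genes (2.72%) had one.

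Conservative summits were also found near member genes but outside that gene's own window. Within 2000 bp of a member gene there were 19 such sites, near 20 genes. The same count was not made for genes outside the families. The 19 include the window sites of clec-126 and fbxb-62, which also lay near other members. Of the sites, 13 lay downstream of a gene, 3 in a gene body and 4 further upstream, where 1 site can count for several genes. Of the 13 downstream sites 6 were at small RNA genes, and these included the strongest, of signal 408.3 at the snoRNA gene F32E10.10 near clec-180, 379.9 at a tRNA-His gene near clec-126 and 345.5 at the snoRNA gene Y75B12B.12 near bath-36. A second neighbouring pair of tRNA-Thr and tRNA-Lys genes, downstream of clec-127, carried a site of 136.8. The window site of clec-126, which lay 412 bp past the end of clec-125, is among the 6 at small RNA genes. Of all 1313 conservative summits, 974 lay away from small RNA genes. In gene bodies, the site of 88.7 in fbxa-139 was in its 5′ UTR, and the sites of 81.0 in clec-149 and 69.2 in clec-170 were in introns.

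Below the threshold, the pooled share of members with a candidate was close to that of other genes, but on arms it was lower. The ranked list behind the conservative peaks has 95098 nuclear candidates, most of which fall far short of the IDR threshold. At least 1 of their summits lay in the windows of 398 members, 62.7% (58.9 to 66.4%), against 64.3% of all protein-coding genes and 39.1% of chemoreceptors. On arms, where most members lie, the share was 64.5% of members (60.2 to 68.5%) and 77.4% of other genes, and in centres 55.7% of members and 54.3% of other genes. The density was 946 candidates per Mb in the members' windows, 954 in all protein-coding windows and 948 in the nuclear genome. At a global IDR of 0.05 or less, 13 members had a candidate (2.05%), 7 of them clec genes, against 6.77% of all genes.

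The families differed widely in their candidates. In the bath family 31 of 36 genes had one (86.1%, 71.3 to 93.9%), in fbxb 80 of 104 (76.9%, 68.0 to 84.0%) and in fbxc 34 of 48 (70.8%, 56.8 to 81.8%). In clec 159 of 240 had one (66.3%, 60.1 to 71.9%) and in fbxa 85 of 170 (50%, 42.6 to 57.4%). In math only 9 of 37 had one (24.3%, 13.4 to 40.1%). The intervals of math and fbxa lay below the share of all genes, and those of bath and fbxb above it. On arms, where most genes of each lie, the share was 78.5% in fbxb, 88.9% in bath, 52.1% in fbxa and 22.2% in math. Other genes on arms had 77.4%, inside the intervals of fbxb (69.1 to 85.6%) and bath (71.9 to 96.15%). That share lay above the intervals of fbxa (44 to 60%) and math (11.7 to 38.1%) on arms.

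The math and bath genes differed although most of both lie on the same arm. On the left arm of chromosome II, 7 of 35 math genes (20%, 10.04 to 35.9%) and 21 of 23 bath genes (91.3%, 73.2 to 97.6%) had a candidate. On that arm the share was 90.6% of 32 fbxc genes, 91.3% of 23 clec genes, 77.8% of 54 fbxb genes, 45.5% of 11 fbxa genes and 86.0% of 798 other genes. The windows of the math genes had a median GC content of 32.9%, against 35.4% over all members and 35% for other genes.

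The share of genes with a candidate was higher in each higher class of GC content among other genes and among members outside math, but not in every family. Among other genes, the share with a candidate was 37.2% where the window's GC content was under 32%, 54.9% from 32 to 35%, 74.2% from 35 to 38% and 88.2% at 38% or more. For members outside math it was 30.5%, 55.5%, 76.1% and 80.6% over the same classes. On the left arm of chromosome II, math genes with a GC content under 32% had a candidate in 3 of 15 windows (20%), against 70.4% of 98 other genes of that class. From 32 to 35% they had one in 2 of 14 windows (14.3%), against 80.5% of 195 other genes. In both classes the math windows held fewer candidates than other windows of the same arm and GC class. The part of GC content in the result was not tested beyond these classes.

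**Figure D3:**
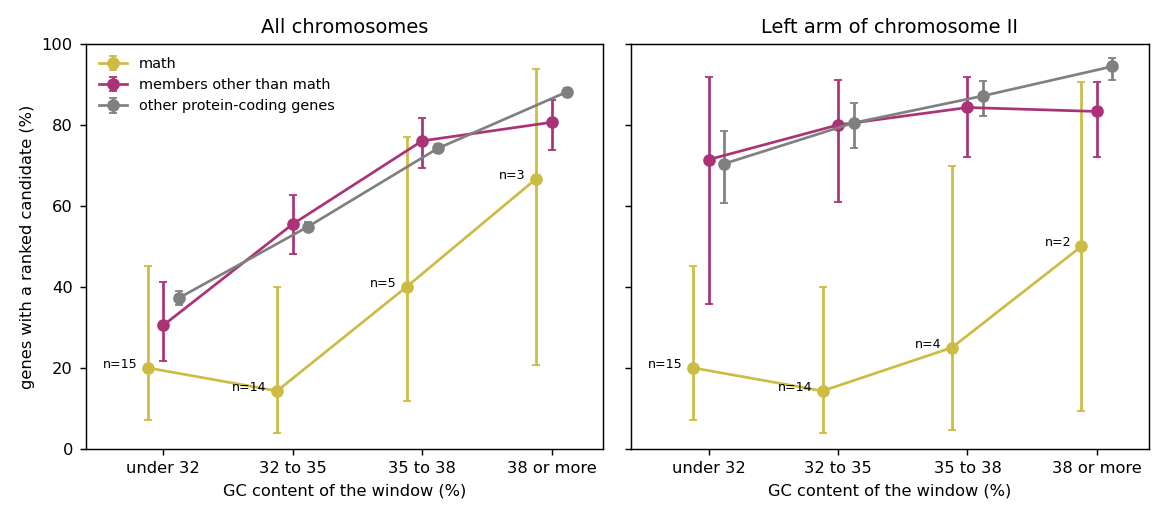
Share of genes (%, y axis) with a ranked candidate in the promoter window, by the GC content of the window (%, x axis), for math genes, the other members and the genes outside the families, with 95% Wilson intervals; left, all chromosomes; right, the left arm of chromosome II. Math genes with a GC content of 32 to 35% lie at 14.3% in both panels, below the other members and the other genes.

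The fbxc and math genes differed in how their candidates went with the uniqueness of the sequence; the difference was not tested. A window's uniqueness was the percentage of its 31-base words that occur once in the nuclear genome, on either strand, and it stands in for how well short reads can be placed; the read length is not known. A group of 10 fbxc genes in a cluster on chromosome IV, which share the names fbxc-4, fbxc-5, fbxc-8 and fbxc-12, had at most 12% unique words, and 0 of these 10 genes had a candidate. Over the families, 14 members had no unique word at all in the window and 0 of the 14 had a candidate. Among fbxc genes with at least 90% unique words, 29 of 31 (93.5%) had a candidate, and of the 17 below that level 5 (29.4%) had one. Among math genes with at least 90% unique words, 5 of 29 (17.2%) had one; of the 8 math genes below that level 4 (50%) had one. Over all members, the share was 62.7% both above and below 90%.

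The fbxa genes of chromosome III were low as well. The left arm of that chromosome held 62 members, 55 of them fbxa genes, and 24 of the 55 (43.6%, 31.4 to 56.7%) had a candidate, against 89.6% of 469 other genes there. In windows under 32% GC the counts were 3 of 17 fbxa genes (17.6%) and 67 of 85 other genes (78.8%). From 32 to 35% they were 10 of 22 (45.5%) and 109 of 124 (87.9%). The median uniqueness of these 55 fbxa windows was 96.7%. For clec genes, in the 5 regions that hold at least 20 of them, the share was 91.3% of 23 on the left arm of chromosome II, 88.9% of 27 on the left arm of chromosome IV, 81.8% of 22 on the right arm of chromosome I, 55.1% of 49 on the right arm of chromosome V and 32.1% of 28 in the centre of chromosome V. Among other genes the shares in these 5 regions, in the same order, were 86.0%, 87.5%, 85.4%, 69.65% and 39.4%.

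**Figure D4:**
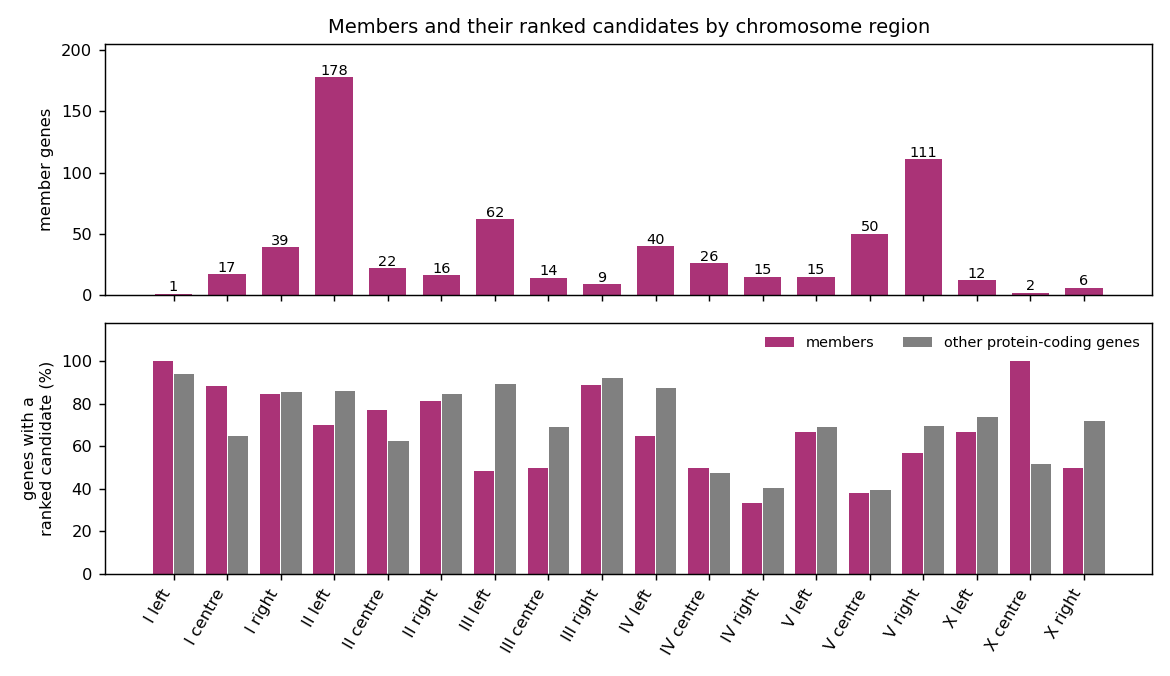
Number of member genes (upper panel) and share of genes with a ranked candidate (%, lower panel) in the left arm, centre and right arm of each chromosome (x axis), for members and for other protein-coding genes. Members lie below other genes by most, among regions with at least 39 members, on the left arm of chromosome III, at 48.4% of 62 genes against 89.6%.

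The members' strongest candidates had a median signal slightly below that of other genes. The signal of each member's strongest candidate had a median of 32.2 and an interquartile range of 23.2 to 43.6, against 35.2 and 24.7 to 47.6 for other genes, a ratio of medians of 0.916. The ratio was 0.943 in replicate 1's own ranked list and 0.911 in replicate 2's. Among genes with 1 annotated 5′ end the medians were closer, 32.04 for members and 32.81 for other genes. With several 5′ ends they were 39.09 and 40.55. The part of the number of 5′ ends in the ratio was not tested. The family medians were 30.9 in fbxa, 33.1 in fbxb, 33.6 in fbxc, 23.7 in math, 34.1 in bath and 33.6 in clec. Only the math median lay below the lower quartile of the other genes, and it rests on 9 genes.

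**Figure D5:**
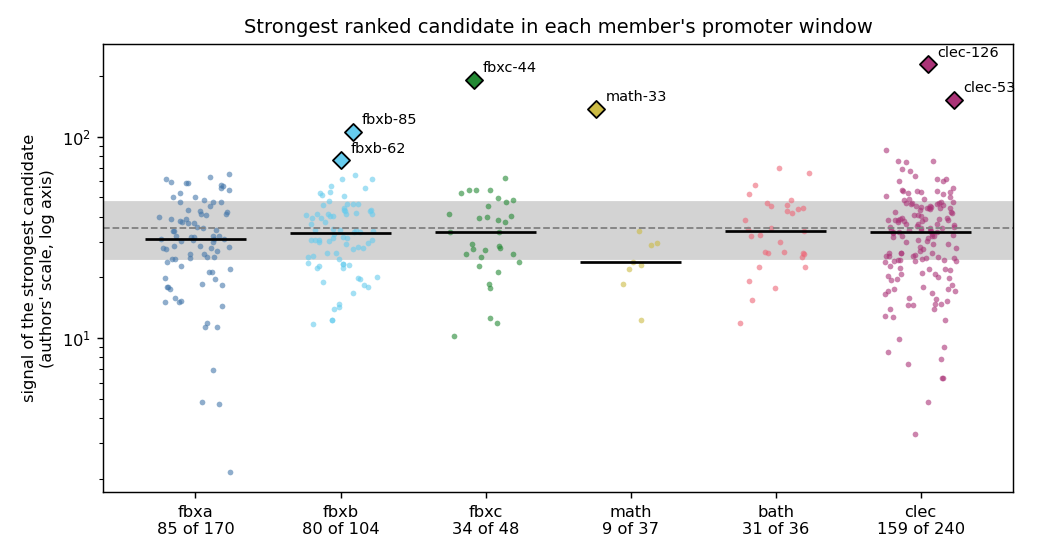
Signal (y axis, log axis, the authors' scale) of the strongest candidate in each member's promoter window, by family (x axis), with conservative sites as named diamonds and family medians as bars; the grey band and dashed line give the interquartile range and median of other genes. The counts under each family are the genes with a candidate; the 6 conservative sites are the strongest points of their families.

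The strongest candidates short of the conservative threshold differed in their IDR and in their signals in the 2 replicates' own lists. In the fbxa family fbxa-99 led, with a signal of 65.5 in the joint list, 31.6 in replicate 1 and 29.9 in replicate 2, followed by fbxa-24 (62.9 jointly) and fbxa-176 (61.4 jointly). In the bath family bath-44 led, with 69.7 jointly, 49.4 in replicate 1 and 19 in replicate 2, followed by bath-20 (65.7 jointly) and bath-42 (57.7 jointly), whose candidate was shared with prp-8, a gene of the spliceosome core. The strongest candidate at clec-80 had 85.4 jointly, more than the 76.2 of fbxb-62, but 59.4 in replicate 1 and 28.7 in replicate 2, and a global IDR of 0.547. At fbxb-101 the joint signal was 64.8, at fbxc-45 it was 62.1, and fbxc-24 shared a candidate of 54.6 with fbxc-27. Apart from math-33, the strongest in the math family were math-1, at 34.1 and shared with bath-24, and math-38, at 29.5. At bath-44 and clec-80 the IDR was 0.126 and 0.547. At clec-126, with 79.3 in replicate 1 and 138.5 in replicate 2, it was 0.000312. The clec-126 peak ranked 296th in replicate 1's own ranked list and 204th in replicate 2's. The replicates' signals come from separate lists on an unstated scale, and how they go with the IDR was not tested.

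The members nearest to the threshold from inside and outside were close in signal. The last member inside was fbxb-62, at an IDR of 0.00718 and a signal of 76.2. The first outside were clec-140, at 0.0109 and 75.5, clec-123, at 0.0129 and 69.3, fbxa-176, at 0.0181 and 61.4, and clec-9, at 0.0184 and 75.8. A further 124 of the 1437 candidates that reach the score of the conservative list were not in it, and 0 of these had their summit in a member's window.

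Counted once each, the candidates in the members' windows came to 728. Of these, 317 (43.5%) overlapped a peak in both replicates' own ranked lists, against 47.3% of the candidates in other promoters. Across those 317 the Spearman correlation between the replicates' signals was 0.218, and across the 11524 of other promoters it was 0.354; the points share their libraries and neighbouring candidates can overlap, so these are descriptions. An IDR of 0.01 or less was reached by 6 candidates (0.824%, against 2.06% in other promoters), and a signal of at least 100 by 5 (0.687%, against 0.993%). Small RNA genes lay within 200 bp of 7 candidates (0.962%, against 1.09%). The strongest candidate lay a median of 434.5 bp upstream of the member's nearest annotated 5′ end, against 341 bp for other genes. It lay more than 500 bp upstream in 44.7% of members with a candidate, against 36.7%. Several annotated 5′ ends were found in 11.3% of all members and 27.9% of other genes. Their part in these distances was not tested.

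The DNA around the 6 conservative member summits had a lower median GC content than conservative summits in general, with a wide spread. Within 100 bp of the summit, single sites ran from 33.8% at fbxc-44 to 56.2% at fbxb-62. Within 100 bp on each side of the summit the median GC content was 43.8% at the 6 conservative member sites, against 48.3% at all 1313 conservative summits, and 39.3% both at 382 strongest member candidates and at all candidates. Of the 6 sites GTTCGA was found at 1, GAGAGA at 2, GCGCGC at 2 and TAATTA, a homeodomain core word, at 0. In all conservative windows the shares were 21.9%, 25.4%, 11.5% and 4.87%. At the strongest member candidates they were 6.55%, 12.8%, 3.66% and 4.97%, and at all candidates 7.62%, 12.1%, 2.41% and 7.15%. The 2 sites with GCGCGC were fbxb-62 and clec-53; a match is a description of the letters only.

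Genes for parts of cullin ligases, among them partners of F-box and BATH proteins, had no conservative summit in their windows. Among 35 genes for cullins, SKP1-related proteins and other parts of cullin ligases, 0 had a conservative summit and 26 (74.3%, 57.9 to 85.8%) had a candidate. The strongest was at cul-3, the cullin that BATH proteins bind, at 81.3, then at the SKP1-related gene skr-21, at 69.7, and at ubc-12, which encodes the conjugating enzyme of NEDD8, at 64.5. Among 8 F-box and MATH-BTB genes with other names, 0 had a conservative summit and 6 had a candidate, the strongest at prom-1, at 57.0. The F-box gene lin-23 and mel-26, a MATH-BTB adaptor of CUL-3, had no candidate. For the counts of 0 the upper 95% Wilson limits are 9.89% of the 35 genes and 32.4% of the 8, both above the 2.97% of all genes.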

How the data were processed

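ChIP-seq peak lists of 2 replicates, labelled tab-1, were used as deposited on ce11, per the labels. Each peak has a signal value from the authors, on a scale that no source used here names, a deposited score that rises as the IDR falls (830 at the threshold of 0.01) and, in the ranked lists deposited by the authors, the −log10 of the global IDR. The sources used here do not give the aligner, the peak caller, the depth or the read length, and intervals that would need the depth were not computed. The 4 columns of the joint ranked lists that may hold single replicates' signals carry no replicate name and were not used; replicate values are those of the strongest overlapping peak (at least 1 bp) in each replicate's own list.

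Gene models were from Ensembl release 115 and sequences and tRNA products from RefSeq, both on WBcel235. The sequence at math-33 is not reported here. A gene was called when a nuclear summit lay in its window. Python 3.11.15, numpy 2.4.6, pandas 2.3.3 and scipy 1.17.1 were used, and window assignment was tested on simulated summits. Shares have 95% Wilson intervals; with 1 group, no test between conditions was possible. Genes were named when a summit of either thresholded list lay in the window, plus the 3 strongest per family; other genes in the text (fbxa-83, clec-99 and those near or just outside a threshold) were chosen after their values were seen, as were the GC classes and the grouping of arms. The members and lists were chosen with earlier results of these data known. The alternatives are given in the closing section.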

Additional observations from a re-analysis of the deposited data

How the results depend on the processing

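The count of 6 members with a conservative summit was between 4 and 7 under the alternatives, except with each summit given to the nearest gene only (3). Without small RNA gene summits it was 5, and leaving out either replicate gave 4 and 4. Here, leaving out a replicate means that the other replicate's own list replaced the joint list. The thresholded lists of replicate 2 and replicate 1 are shorter, with 732 and 464 peaks against 1313. The share of other genes with a summit was lower in them too, at 2.1% and 1.09% against 3.04%. At an IDR of 0.001 or less the shares of members and of other genes were 0.630% and 0.983%, a ratio of 0.641 against 0.311. The family counts are small and moved easily: clec fell from 2 to 1 with a 500 bp window, with the nearest gene only and without small RNA gene summits; fbxb from 2 to 0 at an IDR of 0.001; fbxc from 1 to 0 with the nearest gene only; math from 1 to 0 with the other list, the 500 bp window and the nearest gene only; fbxa rose from 0 to 1 with the other list. Leaving out a replicate put fbxb between 0 and 1 and math between 0 and 1. The arm count of 3 became 5 with the other list or with a centre of 33.3% of the length, and 1 at an IDR of 0.001; leaving out a replicate put it between 1 and 2. The centre count of 3 became 1 with the 500 bp window or the narrower centre and 0 with the nearest gene only. The 398 members with a candidate became 13 at an IDR of 0.05 or less. The ratio of median signals, 0.916, became 0.846 with the 500 bp window and lay between 0.911 and 0.943 without a replicate. The cause of these changes was not tested beyond what each setting leaves out. No paired analysis was possible because there is only 1 group. With 6 sites and 2 replicates, shares by family or region rest on 0 to 3 genes each.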
